A study of Homo sapiens with 15 samples.

Results

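MALAT1, NEAT1, PVT1, GAS5, HOTAIR, SNHG1, DANCR, CYTOR, MIR31HG and LINC-PINT are 10 long noncoding RNAs (lncRNAs) that recur in studies of tumors. They were found in the table of counts by matching each Entrez gene number to its symbol, and 10 of 10 were present among 28395 genes and passed the filter on low counts with 16740 genes in all. Their levels were followed in BEAS-2B cells, an established line of immortalized human bronchial epithelial cells, exposed to nanoplastics of polyethylene terephthalate (PET-NPLs) at 50 µg/mL or kept as passage-matched controls. The 6 conditions were control and exposed cells at 24 h (2 samples each), control and exposed cells at 15 weeks (2 samples each), and control (3 samples) and exposed cells (4 samples) at 30 weeks. All came from the same line without any genetic change made by the study, and exposed cells differed from controls by the particles alone in the labels. The labels do not say whether replicates were separate cultures, so p-values measure only the spread between these samples, which may be technical. The samples of 24 h and 15 weeks belong to batch 1 and those of 30 weeks to batch 2, so that the step to 30 weeks and the change of batch cannot be told apart.

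LncRNAs are transcripts without a long reading frame that act as RNA. Some build nuclear bodies, some bind chromatin-modifying complexes, some act as hosts that release small nucleolar RNAs (snoRNAs) from their introns, and others lie beside or around a microRNA. Several of the RNAs described here are high in lung and other carcinomas (MALAT1, HOTAIR, SNHG1, CYTOR, PVT1), while GAS5 and LINC-PINT are mostly described as restraining growth.

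After 30 weeks, 1 of these lncRNAs was higher and 3 were lower in exposed cells than in controls of the same time. HOTAIR rose 5.34-fold, DANCR fell 2.15-fold, CYTOR fell 1.57-fold and MIR31HG fell 1.26-fold, while MALAT1, NEAT1, PVT1, GAS5, SNHG1 and LINC-PINT did not pass the test (edgeR's quasi-likelihood test, Benjamini-Hochberg adjusted p under 0.05 over all genes tested). The same test called 23.7% of all genes at 30 weeks, 12% higher and 11.7% lower, so that 4 of 10 is to be read against a large background. Exposed and control samples did not overlap for 3 of the 10 (HOTAIR, DANCR and MIR31HG), and for 27.3% of all genes. The median log2 fold change (log2FC) was -0.22 over the 10 lncRNAs and 0.01 over all genes.

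At 24 h the same test called 0 of the 10 and 0% of all genes, and DESeq2 and limma-voom also called 0 of them. The unadjusted p was under 0.05 for 0 of the 10 and for 1.65% of all genes. Only CYTOR had groups that did not overlap at 24 h, as did 26% of all genes. At 15 weeks 0 of the 10 and 0% of all genes were called, again with 0 calls among the 10 by DESeq2 and limma-voom, but 3 lncRNAs (NEAT1, HOTAIR and LINC-PINT, all higher in exposed cells) had an unadjusted p under 0.05, as did 4.92% of all genes. The groups did not overlap for 6 of the 10 at 15 weeks, a share close to the 45.3% of all genes for which this held with 2 samples against 2. Fitted to the 15-week samples alone, 3 of the 10 were called (MALAT1, NEAT1 and LINC-PINT), beside 1.96% of all genes.

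**Figure D1:**
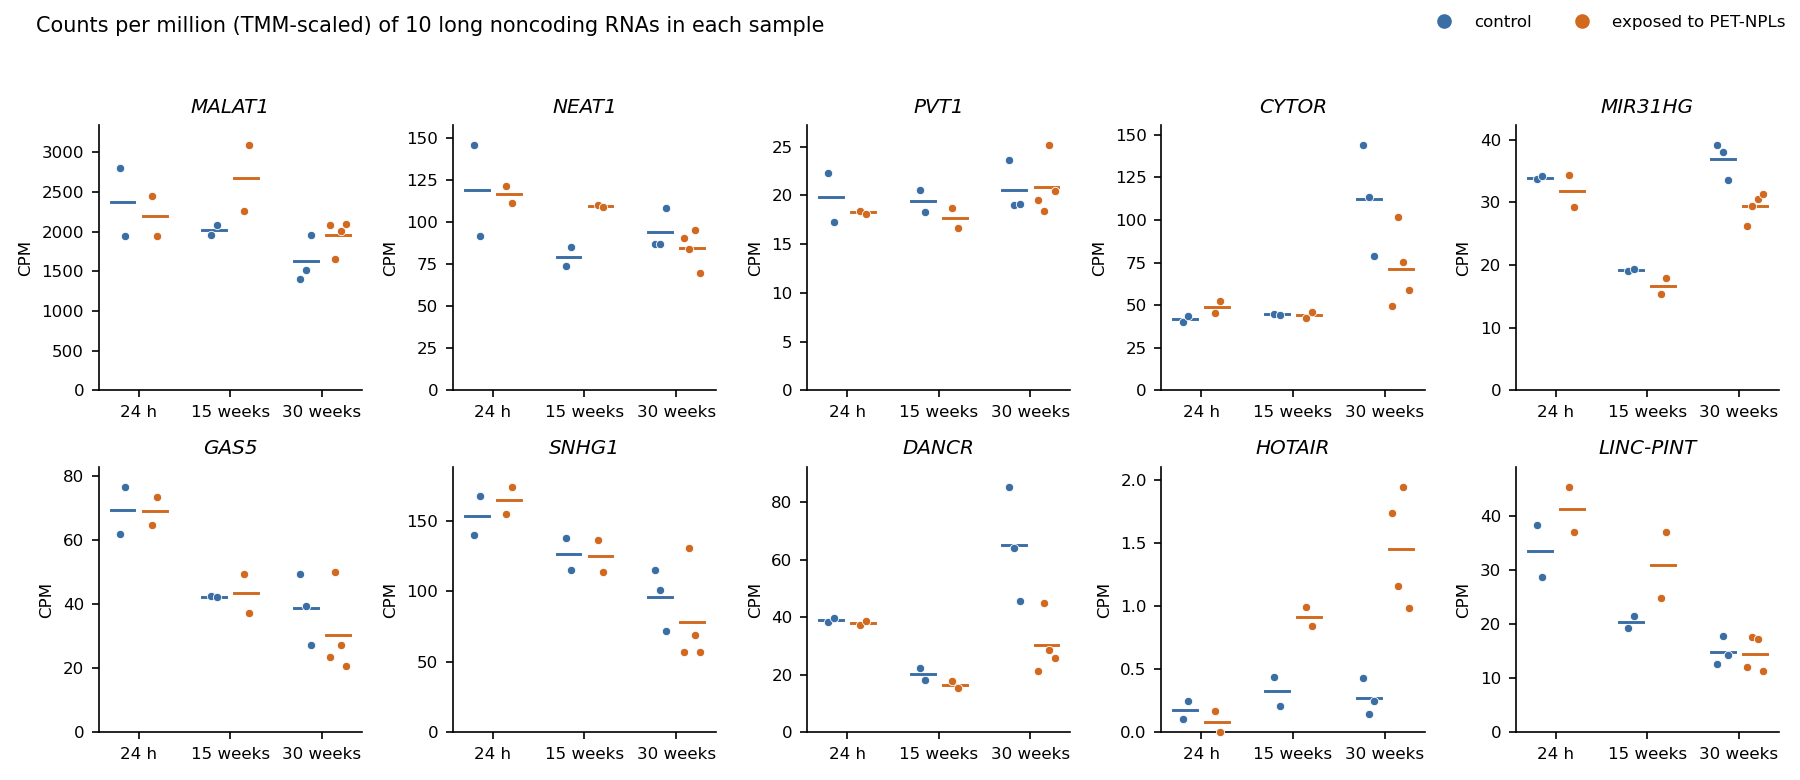
Level of each of the 10 lncRNAs in each of the 15 samples, in TMM-scaled CPM on linear axes that start at 0, with control cells in blue, exposed cells in orange and a bar at the mean of each group. HOTAIR separates the groups at 15 and 30 weeks, DANCR and MIR31HG at 30 weeks are lower in every exposed sample than in every control, and PVT1 stays between 16.7 and 25.2 CPM throughout.

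**Figure D2:**
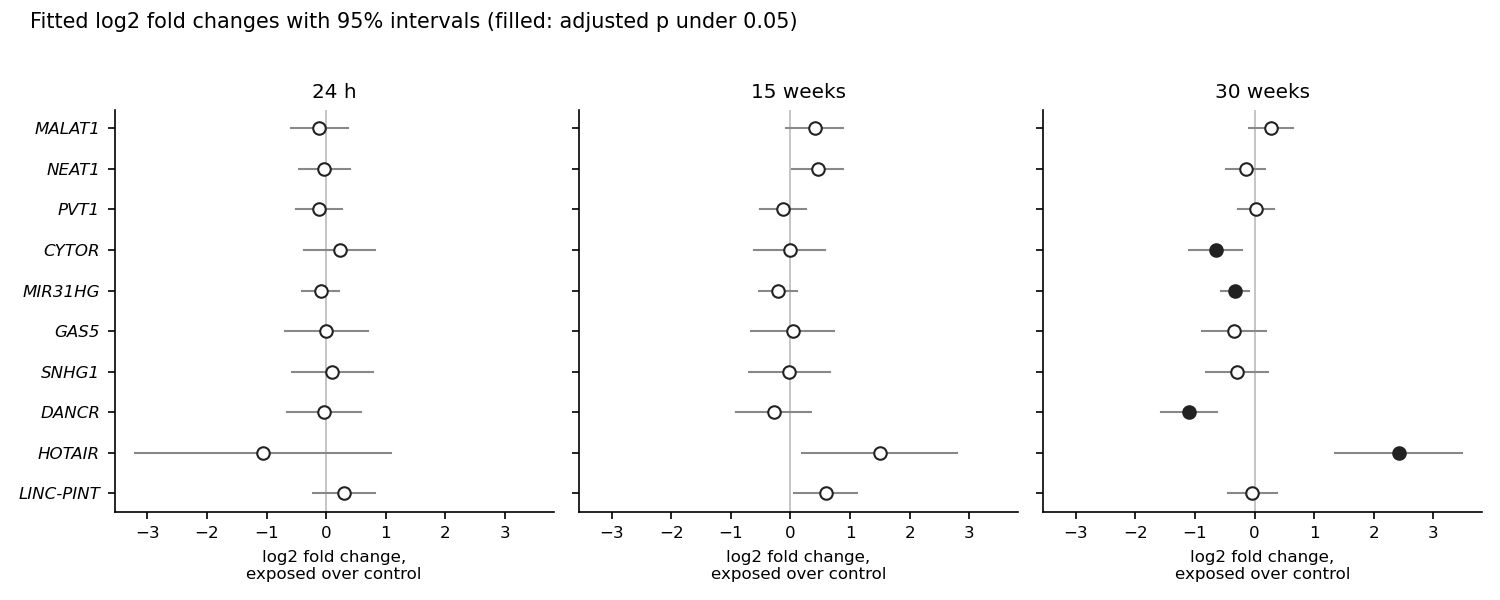
Fitted log2FC of exposed over control cells for each lncRNA at each time point, with its 95% interval as a line. Filled points mark the 4 lncRNAs with an adjusted p under 0.05, all at 30 weeks, and the wide intervals of HOTAIR go with its low counts.

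Depth lay between 23143202 and 31459990 counts per sample, and levels are given as CPM, counts scaled to a common library size by the TMM method. Abundant small noncoding RNAs (6 genes) took 9.75% to 12.9% of counts at 24 h and 15 weeks, 22.3% to 31.03% in the 30-week controls and 17.0% to 21.5% in exposed cells at 30 weeks. At 30 weeks exposed replicate 2 stood apart among the exposed samples, with correlations of 0.976 to 0.981 to the others, which correlated with each other at 0.991. The controls of 30 weeks also varied, with correlations of 0.983 to 0.987 to each other, and control replicate 1 had the highest share of small RNAs. The labelled cell type was checked by 8 bronchial epithelial markers. KRT5 was at 0 counts in every sample of 15 and 30 weeks, and TP63 in every sample of 15 weeks and every exposed sample of 30 weeks. The summed level of the list lay between 1987 and 2297 CPM at 24 h and between 826 and 1036 CPM at 15 weeks. Among the 30-week samples it was 314 to 411 CPM in controls and 880 to 1097 CPM in exposed cells. KRT8, KRT18 and KRT19 were called higher in exposed cells (3 of 6 tested, beside 12% of all genes). The list was not uniform, since 2 of the 6 tested had a negative log2FC, though not called. The 7 skeletal muscle markers summed to 164 to 207 CPM in the 30-week controls and to 5.00 to 5.96 CPM in exposed cells. In the samples of 24 h and 15 weeks they summed to between 6.85 and 11.8 CPM. At 30 weeks 6 of 7 were called lower in exposed cells (CHRNA1, TNNT2 and MYOD1 most), beside 11.7% of all genes. Of 5 mesenchymal markers CDH2 was called higher and ZEB1 and TWIST1 lower, beside 12% and 11.7% of all genes. Endothelial markers (2 of 2 tested called higher, beside 12% of all genes) summed to at most 2.90 CPM. Of the immune markers only CD68 was tested, and it was lower. H19, an imprinted fetal lncRNA, stood with the muscle markers, at a mean of 85.1 CPM in the 30-week controls, 0.668 CPM in exposed cells and at most 1.29 CPM in the groups of 24 h and 15 weeks. Every difference at 30 weeks is one against these controls, and whether they hold only the labelled cells was not tested. The part of these differences in the lncRNA results at 30 weeks was not tested either, and in bulk RNA fewer cells of a type and less RNA per cell cannot be told apart.

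HOTAIR is transcribed from the HOXC cluster of developmental transcription factors, on the strand opposite to the HOXC genes, and is known for binding the PRC2 and LSD1 complexes that modify chromatin. It lies at chr12:53962312-53974954 on the minus strand (RefSeq, GRCh38.p14, Entrez gene 100124700), between HOXC12 and HOXC11, and its span overlaps that of HOXC11, although GENCODE v44 lists no shared exon. It was the least abundant of the 10 also per length, at 0.207 CPM per kb of all annotated exons and 0.266 CPM per kb of its main transcript. At 24 h it had 3 and 7 counts in the controls and 4 and 0 in exposed cells, at or near the floor of 3 counts, so that no fold is given. At 15 weeks it had 14 and 7 counts (0.44 and 0.21 CPM) in the controls and 32 and 26 counts (0.99 and 0.84 CPM) in exposed cells. At 30 weeks the controls had 10, 4 and 7 counts (0.43, 0.14 and 0.25 CPM) and exposed cells 48, 33, 56 and 28 counts (1.74, 1.16, 1.95 and 0.99 CPM). Every exposed sample of 15 and 30 weeks lay above every control of its time point, and above every sample of 24 h.

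The mean of HOTAIR at 30 weeks was 0.275 ± 0.144 CPM in controls (SD, n = 3) and 1.46 ± 0.459 CPM in exposed cells (SD, n = 4), with a log2FC of 2.42 (standard error 0.501, 95% interval 1.35 to 3.48, adjusted p = 0.00236 in edgeR's quasi-likelihood test). The call was kept under all 17 alternatives that could be run for it, with adjusted p-values up to 0.0157. HOTAIR was over the minimum of the filter on low counts in 7 samples, 3 of them outside the exposed 30-week samples. Too few controls were over it for HOTAIR to pass through controls alone, so that the filter favored a higher level in exposed cells. With no filter on low counts the log2FC was 2.42 (adjusted p = 0.000253 in edgeR). At 15 weeks the log2FC was 1.50 (standard error 0.614, unadjusted p = 0.0267 and adjusted p = 0.963 in the edgeR fit). The 2 changes differed by 0.92 on the log2 scale (standard error 0.810, adjusted p = 0.671 in edgeR), so that a larger change at 30 weeks was not shown. In exposed cells alone HOTAIR was higher at 15 weeks than at 24 h (adjusted p = 0.00505 in edgeR). With counts of 4 and 0 at 24 h this step has no stable size, since the fitted log2FC ran from 2.40 to 7.74 over the alternatives, and the call was lost without exposed replicate 2 of 24 h (adjusted p = 0.0657). In controls the same step was not called (adjusted p = 0.452 in edgeR).

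The HOXC genes that could be tested were also higher in exposed cells at 30 weeks. Of 9 HOXC genes 8 were tested and called higher, but 5 of them (HOXC4, HOXC5, HOXC6, HOXC10 and HOXC11) passed the filter on low counts only through the exposed 30-week samples, so that the choice of tested genes favored a difference in that direction. The 3 that also passed without those samples were HOXC8 (log2FC 3.27), HOXC9 and HOXC13. HOXC9, the most abundant, had 0.99, 0.69 and 0.68 CPM in the controls and 5.76, 7.32, 7.40 and 6.06 CPM in exposed cells (log2FC 3.08, standard error 0.236, adjusted p = 1.17e-07 in edgeR). HOXC13, the nearest tested gene on one side, had 0.26, 0.25 and 0.47 CPM in the controls and 3.91, 2.56, 2.43 and 3.49 CPM in exposed cells (3.22, standard error 0.404). HOXC11, the nearest on the other side, had 0, 0 and 2 counts in the controls and 15, 13, 10 and 3 in exposed cells, so that its size is uncertain. HOXC12, between HOXC13 and HOXC11, did not pass the filter. Summed over the 9 genes, HOXC RNA stood at 1.72 to 2.36 CPM in the 30-week controls, 17.8 to 19.3 CPM in exposed cells, 2.45 to 2.79 CPM in exposed cells at 15 weeks and 0.973 to 1.07 CPM in the controls at 15 weeks. At 15 weeks 0 of 8 were called in edgeR, beside 0% of all genes. An unadjusted p under 0.05 was found for 3 of 8 (HOXC6, HOXC9 and HOXC10), beside 4.92% of all genes. HOXC6 had 2 and 2 counts in the controls and 5 and 10 in exposed cells, and HOXC10 0 and 0 against 1 and 7. These 2 genes are among the 5 that passed the filter only through the exposed 30-week samples. Among the 20 genes nearest to HOTAIR (10 tested genes on each side) the 12 that are not HOXC genes gave 2 called higher and 1 lower, close to the 23.7% called over all genes, with a median of 0.08 against 0.07 over 842 genes of chromosome 12. HOXC calls fell to 5 without control replicate 1 and also without control replicate 2, where 14.9% and 21.5% of all genes were called. In GENCODE v44 the genes that share exon bases with HOTAIR on the other strand are miscellaneous RNAs (69 and 97 bases, 2.2% and 3.1% of its exon bases), not HOXC11. Without known strand in the counting, reads over these bases cannot be told apart. Whether the annotation used for counting holds other overlaps was not tested.

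**Figure D3:**
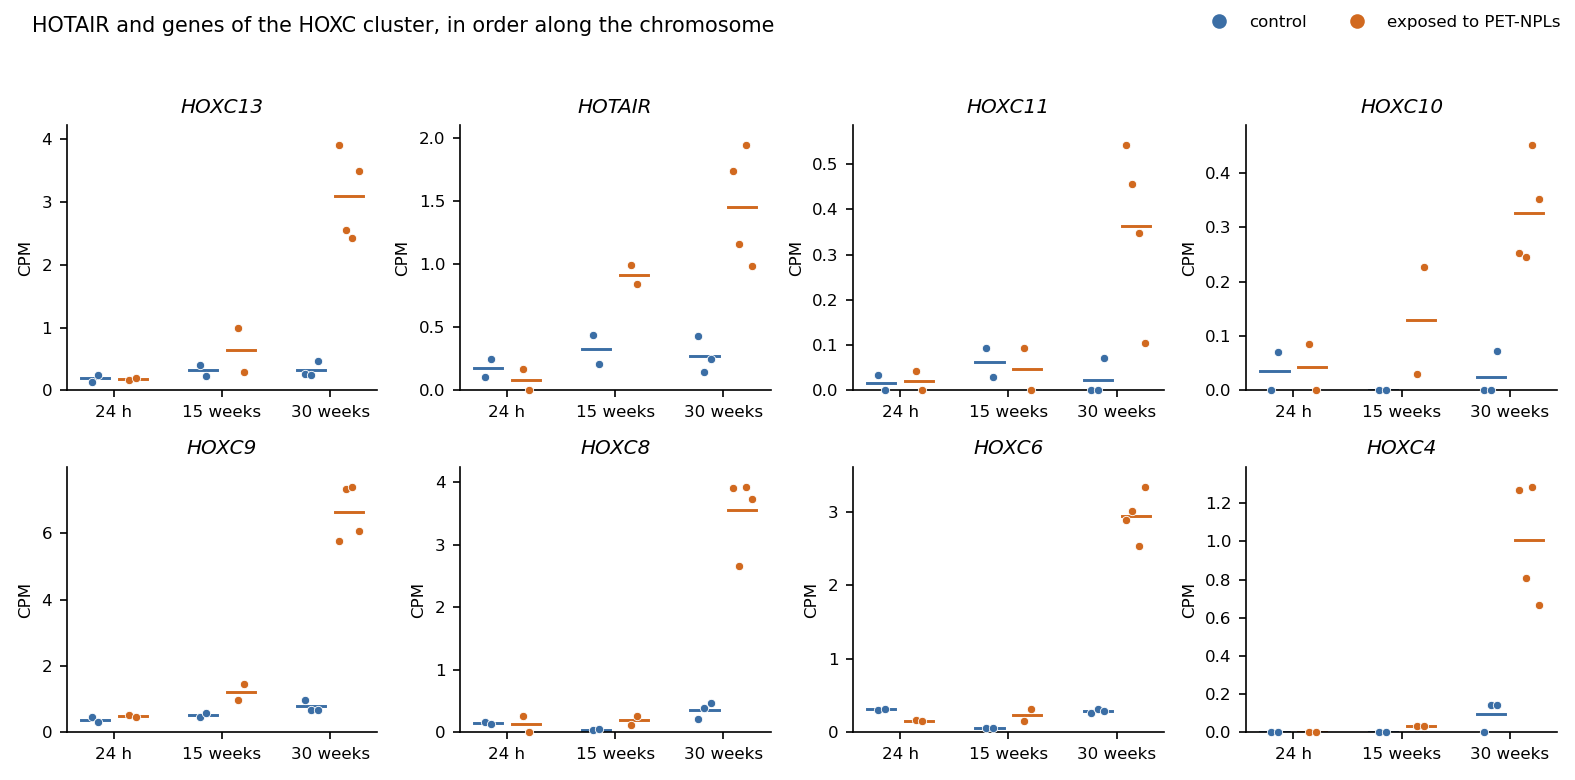
CPM of HOTAIR and of 7 HOXC genes in each sample, on linear axes that start at 0 and differ in scale, with controls in blue, exposed cells in orange and a bar at each group mean. In all 8 panels the 4 exposed samples of 30 weeks lie above the 3 controls, and the HOXC genes are low in every other condition. HOXC4, HOXC6, HOXC10 and HOXC11 passed the filter on low counts only through the exposed 30-week samples, which favors this order in their panels.

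Genes of the complexes that HOTAIR is known to bind were counted as well. Of 13 PRC2 and LSD1 complex genes, 0 were called at 30 weeks by edgeR, DESeq2 and limma-voom, beside 23.7% of all genes in edgeR, with 4 at an unadjusted p under 0.05, where 35.8% of all genes stood, and a median of 0.09. Without exposed replicate 2 the count was 2, beside 34.2% of all genes. Over the 6 conditions, the genes whose centred log2 CPM means were most like those of HOTAIR, among 13371 genes at 1 CPM or more, were GPRC5C (root mean square difference 0.40), INA (0.41) and ULBP1 (0.43).

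DANCR, also listed as a snoRNA host, is known from stem cells, where it opposes differentiation. It lies at chr4:52712394-52720697 on the plus strand (GRCh38.p14, Entrez gene 57291). DANCR had 38.3 and 39.8 CPM in the controls and 37.5 and 38.8 CPM in exposed cells at 24 h. At 15 weeks it had 22.3 and 18.1 CPM in the controls and 17.9 and 15.3 CPM in exposed cells. At 30 weeks the controls had 85.4, 64.0 and 45.6 CPM, and the exposed cells 21.4, 45.1, 28.6 and 25.7 CPM. The 2 groups of 30 weeks did not overlap, but the highest exposed sample (replicate 2) came within 1 CPM of the lowest control (replicate 3). The means at 30 weeks were 65.0 ± 19.9 CPM (SD, n = 3) and 30.2 ± 10.3 CPM (SD, n = 4), with a log2FC of -1.10 (standard error 0.221, 95% interval -1.57 to -0.64, adjusted p = 0.00178 in edgeR).

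The lower level of DANCR in exposed cells at 30 weeks was called under all 18 alternatives, with log2FCs of -1.36 to -0.85 and adjusted p-values up to 0.0211. Both 30-week groups stood above those of 15 weeks, by a log2FC of 1.69 in controls and 0.86 in exposed cells (edgeR adjusted p = 0.000153 and 0.0143), so that the difference between groups came with a larger step in the controls. The change at 30 weeks minus that at 15 weeks was -0.82 (standard error 0.371, adjusted p = 0.294 in edgeR), and it was called without exposed replicate 2. The nearest tested genes, USP46-DT and MIR4449, were at 0.13 and -0.35 on the log2 scale and were not called. Both were too low to show much, with 30-week means in controls and exposed cells of 0.751 and 0.820 CPM for USP46-DT and 0.273 and 0.205 CPM for MIR4449. MIR4449 also lies within an exon of DANCR (66 shared bases), so that it is not a separate neighbor. Among the 20 genes around DANCR, 2 were called higher and 3 lower, a share close to the 23.7% called over all genes. Their median was -0.29, beside a median of -0.32 over 561 tested genes of chromosome 4. The patterns most like DANCR over the 6 conditions were those of SNORD93 (0.09), KLF5 (0.10) and RPS29 (0.11), given as root mean square differences on the log2 scale.

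Its promoter, from 250 bases before to 50 bases after the start of the gene (RefSeq, GRCh38.p14, chr4:52712144-52712443, plus strand), held the CCAAT box 5 times counting both strands, as ATTGG where it is on the other strand. The capitals mark these boxes, and the sequence is shown since DANCR had the most of the members with a promoter in the table.
DANCR promoter: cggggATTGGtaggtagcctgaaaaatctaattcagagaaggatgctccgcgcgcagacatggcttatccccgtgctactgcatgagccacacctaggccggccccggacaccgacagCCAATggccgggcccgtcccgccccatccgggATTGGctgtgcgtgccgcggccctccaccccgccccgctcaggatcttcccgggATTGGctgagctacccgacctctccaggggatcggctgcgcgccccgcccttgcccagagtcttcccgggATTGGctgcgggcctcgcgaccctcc
Of 35116 promoters of the same length, 34.6% held CCAAT at least once. GAS5 held it 3 times (at -237, -85 and -35 from the gene start, all on its own strand), and MIR31HG had none of the 4 motifs searched on both strands, which were the E-box CACGTG, the AP-1 element TGANTCA, the TATA box TATAAA and the CCAAT box. A match describes the letters and not a bound site.

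CYTOR, which is raised in many carcinomas, has a near-identical copy on the same chromosome, MIR4435-2HG. It lies at chr2:87455427-87521518 on the plus strand (GRCh38.p14, Entrez gene 112597). At 24 h it had 40.4 and 43.6 CPM in the controls and 45.7 and 52.5 CPM in exposed cells, and at 15 weeks 45.04 and 44.4 CPM in the controls and 42.8 and 46.1 CPM in exposed cells. At 30 weeks the controls had 144, 113 and 79.0 CPM, and exposed cells 49.3, 102, 75.2 and 59.0 CPM. Exposed replicate 2 lay above control replicate 3, so the groups overlapped, and 3 of the 4 exposed samples lay below all controls. The means were 112 ± 32.6 CPM (SD, n = 3) and 71.3 ± 22.98 CPM (SD, n = 4), with a log2FC of -0.65 (standard error 0.212, adjusted p = 0.0349 in edgeR).

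This call was less firm than that of DANCR. It was lost in 7 of 18 alternatives, among them the fits without control replicate 1 (-0.43, adjusted p = 0.241), without control replicate 2 (0.076) and without exposed replicate 1, 3 or 4 (0.0926, 0.0567 and 0.0946 in edgeR). Over all alternatives the adjusted p ran from 0.000572 to 0.241. MIR4435-2HG had 94.5, 76.9 and 53.8 CPM in the controls and 41.4, 73.2, 53.6 and 34.3 CPM in exposed cells at 30 weeks, and did not pass the test (-0.57, standard error 0.215, adjusted p = 0.0662 in edgeR). Counted as 1 gene, the pair gave -0.62 (adjusted p = 0.0425 in edgeR). Controls of 30 weeks exceeded those of 15 weeks by a log2FC of 1.33 and exposed cells by 0.68, both called (adjusted p = 0.000681 and 0.0348 in edgeR). RPL27 (0.04), NDUFAB1 (0.07) and AIG1 (0.07) were most like CYTOR by root mean square difference over the 6 conditions.

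The promoter of CYTOR (chr2:87455177-87455476, plus strand, GRCh38.p14) held 2 copies of the AP-1 element TGANTCA, which begin 19 and 9 bases before the start, and 1 CCAAT box after it, marked in capitals. It is shown for these elements and for its likeness to the promoter of the copy.
CYTOR promoter: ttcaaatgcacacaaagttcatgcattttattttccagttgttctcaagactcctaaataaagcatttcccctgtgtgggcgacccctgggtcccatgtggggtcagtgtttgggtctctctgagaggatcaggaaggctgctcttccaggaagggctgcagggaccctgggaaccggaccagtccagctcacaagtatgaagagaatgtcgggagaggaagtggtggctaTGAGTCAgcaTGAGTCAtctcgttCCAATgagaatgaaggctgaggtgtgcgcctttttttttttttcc
The TGANTCA element is in 7.7% of the 35116 promoters. At the best shift without gaps, 59 bases, the promoter listed for MIR4435-2HG (chr2:111495112-111495411, minus strand) was identical over all 241 aligned bases. The handling of reads that match both copies is not given in the sources used here.

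MIR31HG is the host transcript around miR-31 and lies at chr9:21454268-21559798 on the minus strand (GRCh38.p14, Entrez gene 554202). Its levels at 24 h were 33.7 and 34.1 CPM in the controls and 34.5 and 29.2 CPM in exposed cells. At 15 weeks the values were 18.98 and 19.4 CPM in the controls and 15.4 and 17.9 CPM in exposed cells. At 30 weeks the controls had 39.2, 38.0 and 33.6 CPM and exposed cells 26.3, 29.4, 30.6 and 31.4 CPM, without overlap. The means were 37.0 ± 2.94 CPM (SD, n = 3) and 29.4 ± 2.24 CPM (SD, n = 4), with a log2FC of -0.33 (standard error 0.111, adjusted p = 0.0412 in edgeR), the least change of the 4 called. It was called in 9 of 18 alternatives, with adjusted p-values from 0.0206 to 0.154, and the call was lost on leaving out any of control replicate 1 (0.154) or 2 (0.0947), or exposed replicate 1 (0.117), 3 (0.0608) or 4 (0.0546). Both groups of 30 weeks were above those of 15 weeks (0.94 in controls and 0.82 in exposed cells, both called in edgeR, adjusted p = 4.43e-05 and 0.00015). Its nearest tested genes, KLHL9 (0.19) and the interferon gene IFNE (-0.10), were not called, and IFNE lies within the span of MIR31HG.

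The microRNA within MIR31HG was barely seen, with 0 to 7 counts in every sample for the MIR31 locus, so that no comparison could be made. These libraries were made from total RNA and do not select small RNA. The mature miR-31-5p (intron of MIR31HG, chr9:21512158-21512178, minus strand) is shown with its seed, bases 2 to 8, in capitals, to identify the RNA that this host carries.
hsa-miR-31-5p: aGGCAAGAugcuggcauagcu
PNMA1 (0.07), CNN2 (0.07) and EIF6 (0.07) were most like MIR31HG over the 6 conditions, and 0 of these 3 were called at 30 weeks. The promoter of MIR31HG (chr9:21559749-21560048, minus strand) had none of the motifs and is shown for contrast with those of DANCR and CYTOR.
MIR31HG promoter: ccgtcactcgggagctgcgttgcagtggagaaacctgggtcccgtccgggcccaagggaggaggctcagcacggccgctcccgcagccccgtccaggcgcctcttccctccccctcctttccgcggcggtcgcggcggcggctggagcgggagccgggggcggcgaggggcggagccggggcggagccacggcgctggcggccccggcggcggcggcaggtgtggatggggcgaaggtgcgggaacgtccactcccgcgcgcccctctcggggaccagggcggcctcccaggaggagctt

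GAS5 and SNHG1 are hosts whose introns carry box C/D snoRNAs, which guide the methylation of ribosomal RNA, and whose spliced exons are degraded by nonsense-mediated decay. GAS5 had 61.8 and 76.7 CPM in the controls and 64.7 and 73.5 CPM in exposed cells at 24 h, and 42.6 and 42.2 CPM against 49.5 and 37.4 CPM at 15 weeks. At 30 weeks it had 49.3, 39.3 and 27.4 CPM in the controls and 23.6, 50.0, 27.2 and 20.7 CPM in exposed cells. SNHG1 at 30 weeks had 116, 101 and 71.6 CPM in the controls and 57.4, 131, 68.9 and 56.9 CPM in exposed cells. For both RNAs exposed replicate 2 was the highest of all 7 samples and the other 3 exposed samples lay below all controls. GAS5 changed by -0.35 (standard error 0.253, adjusted p = 0.355 in edgeR) and SNHG1 by -0.29 (standard error 0.245, adjusted p = 0.428 in edgeR).

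Single libraries moved these values. Without control replicate 1 GAS5 was at -0.13 and SNHG1 at -0.13, and without control replicate 3 they were at -0.54 and -0.46. Without exposed replicate 4 they were at -0.19 and -0.16, and without exposed replicate 1 SNHG1 was at -0.17, with neither called in any of these fits. Without exposed replicate 2 GAS5 was at -0.70 (adjusted p = 0.00384 in edgeR) and SNHG1 at -0.66 (adjusted p = 0.00236), and both were then called lower, while over all 18 alternatives the adjusted p ran from 0.00384 to 0.826 for GAS5 and from 0.00236 to 0.818 for SNHG1. They were also called with 2 surrogate variables (0.0111 and 0.00311 in limma-voom) and without both control replicate 1 and exposed replicate 2 (0.0364 and 0.0192). At 24 h SNHG1 had 140 and 168 CPM in the controls and 155 and 174 CPM in exposed cells. At 15 weeks it had 138 and 115 CPM in the controls and 136 and 114 CPM in exposed cells.

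Other snoRNA hosts were tested in the same fit. Of 20 tested, 3 were called lower at 30 weeks (SNHG9 -1.49, SNHG8 -1.14 and SNHG6 -0.83) and 0 higher, beside 11.7% of all genes called lower and 12% higher, 14 of 20 had a negative value, and the median was -0.36 beside 0.01 over all genes. Without exposed replicate 2 the called count became 14, beside 34.2% of all genes. The snoRNAs in the introns of GAS5 were low in counts, and 1 of 10 was called lower (SNORD77, -0.92, from a mean of 2.24 to 1.171 CPM). Of 8 in the introns of SNHG1, SNORD31 (-0.91) and SNORD30 (-0.76) were called lower, in 2 of 8. Among all genes 11.7% were called lower. The counts of 1 and 2 ran from 0 to 3 and from 0 to 4 when single libraries were left out. Either was 0 without control replicate 1, where 14.9% of all genes were called. In GENCODE v44 SNORD30 shares 70 bases with annotated exons of SNHG1 on the same strand. SNORD22, SNORD25, SNORD26, SNORD27 and SNORD28 also share exon bases with it. Whether reads of SNHG1 were counted for these snoRNAs was not tested. Of 8 nonsense-mediated decay factors 0 were called in edgeR and in limma-voom and 1 in DESeq2, beside 23.7%, 23.8% and 26.5% of all genes. In edgeR 2 had an unadjusted p under 0.05, beside 35.8% of all genes. Without exposed replicate 2, where 34.2% of all genes were called, the count was 2.

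**Figure D4:**
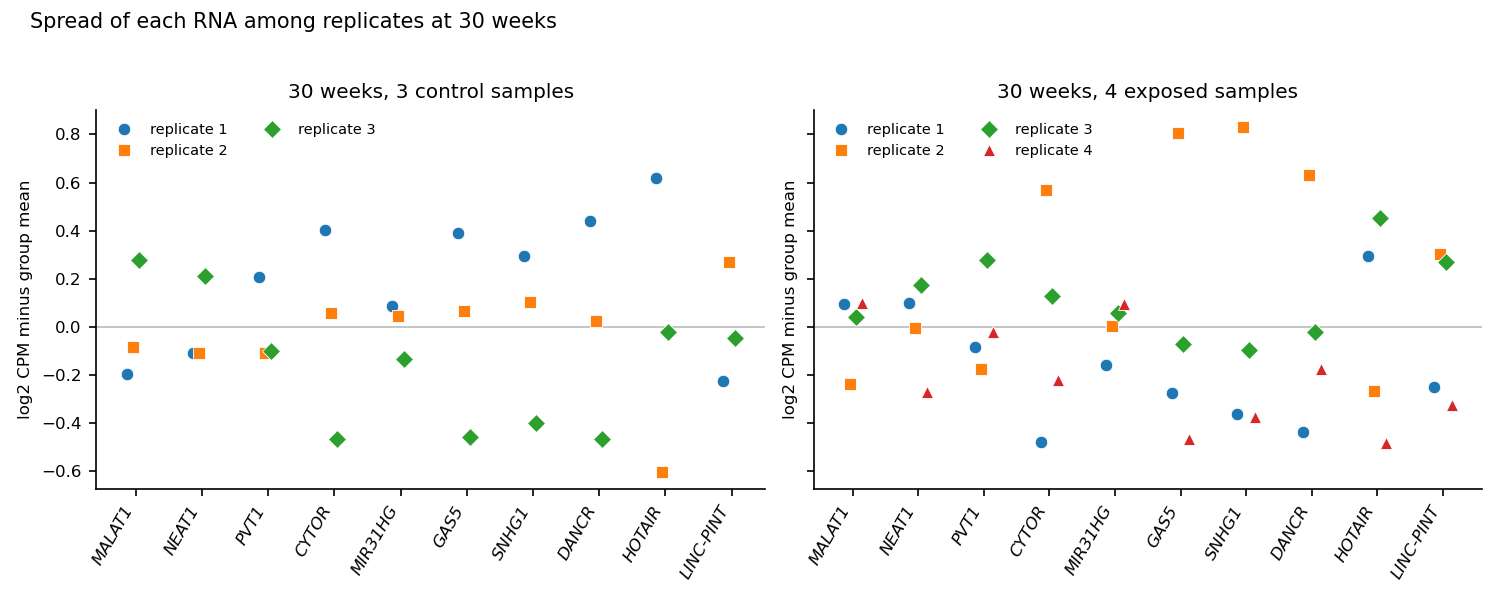
Deviation of each sample at 30 weeks from the mean of its group, in log2 CPM, for each lncRNA, with 1 marker per replicate. In exposed cells replicate 2 lies 0.57 to 0.83 above the mean for CYTOR, GAS5, SNHG1 and DANCR, and in controls replicate 1 is highest and replicate 3 lowest for these same 4.

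MALAT1 and NEAT1 are nuclear RNAs transcribed from neighboring genes of chromosome 11. MALAT1 gathers in nuclear speckles, where splicing factors are stored, and NEAT1 is the scaffold of paraspeckles. MALAT1 was the most abundant per length of the 10, at 200 CPM per kb by either length. It had 2804 and 1942 CPM in the controls and 2449 and 1938 CPM in exposed cells at 24 h, and 1956 and 2082 CPM in the controls and 2261 and 3094 CPM in exposed cells at 15 weeks. At 30 weeks it had 1405, 1520 and 1952 CPM in the controls and 2081, 1653, 2010 and 2092 CPM in exposed cells. Exposed replicates 1, 3 and 4 were above all controls and replicate 2 was not, and the log2FC was 0.27 (standard error 0.174, 95% interval -0.10 to 0.64, adjusted p = 0.289 in edgeR). TALAM1, on the other strand, covers 77.8% of the exon bases of MALAT1, so that without known strand in the counting these transcripts cannot be told apart.

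NEAT1 had 146 and 91.8 CPM in the controls and 122 and 111 CPM in exposed cells at 24 h. At 15 weeks it had 73.9 and 85.0 CPM in the controls and 110 and 109 CPM in exposed cells, all exposed samples above the controls (log2FC 0.46, unadjusted p = 0.0358, adjusted p = 0.985 in edgeR). At 30 weeks it had 86.8, 86.8 and 108 CPM in the controls and 90.3, 84.0, 95.0 and 69.7 CPM in exposed cells, with overlap and a log2FC of -0.15 (adjusted p = 0.528 in edgeR). The change at 30 weeks minus that at 15 weeks was -0.61 (standard error 0.253, adjusted p = 0.241 in edgeR). Of 15 paraspeckle proteins 0 were called at 30 weeks by edgeR, DESeq2 and limma-voom and 0 had an unadjusted p under 0.05. Among all genes 23.7% were called in edgeR and 35.8% had an unadjusted p under 0.05. Of 11 nuclear speckle proteins 1 was called higher, SON (0.62, from a mean of 314 to 483 CPM), beside 12% of all genes called higher. The call was lost without control replicate 1, where 14.9% of all genes were called.

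PVT1 lies beside MYC and was the steadiest of the 10, between 16.7 and 25.2 CPM over the 15 samples. At 24 h it had 22.3 and 17.3 CPM in the controls and 18.4 and 18.1 CPM in exposed cells, and at 15 weeks 20.5 and 18.3 CPM against 18.7 and 16.7 CPM. At 30 weeks it had 23.6, 18.99 and 19.1 CPM in the controls and 19.6, 18.4, 25.2 and 20.4 CPM in exposed cells (log2FC 0.02, 95% interval -0.27 to 0.32, adjusted p = 0.926 in edgeR). MYC, an oncogene of cell growth and the nearest tested gene at lower coordinates, had means of 51.1 and 45.4 CPM at 30 weeks (log2FC -0.17, adjusted p = 0.312 in edgeR). MIR1204, listed on the other side, shares 67 exon bases with PVT1 and is not a separate neighbor. It was not called (log2FC 0.42, adjusted p = 0.312 in edgeR).

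LINC-PINT is a target of p53, and its span in GENCODE v44 holds the genes of miR-29a and miR-29b. It is transcribed from the minus strand at chr7:130877562-131109925 (GRCh38.p14, Entrez gene 378805). Controls had 38.4 and 28.8 CPM at 24 h, and exposed cells 45.5 and 37.2 CPM. At 15 weeks the controls had 19.3 and 21.6 CPM and the exposed cells 24.9 and 37.0 CPM, without overlap (log2FC 0.60, unadjusted p = 0.0295, adjusted p = 0.975 in edgeR). At 30 weeks it had 12.7, 17.9 and 14.4 CPM in the controls and 12.02, 17.7, 17.3 and 11.4 CPM in exposed cells (log2FC -0.04, adjusted p = 0.919 in edgeR). All 7 samples of 30 weeks lay below all 8 samples of 24 h and 15 weeks. Of 20 p53 target genes 4 were called higher at 30 weeks (FAS 1.13, FDXR 0.55 and XPC 0.47 most) and 6 lower (GDF15 -1.06, TP53I3 -0.76 and BTG2 -0.71 most), beside 12% and 11.7% of all genes. Their count of 10 fell to 5 without control replicate 1, where 14.9% of all genes were called.

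The 3′ arms of miR-29a and miR-29b share their seed, shown in capitals (bases 2 to 8), and are printed because both lie within the annotated span of LINC-PINT. Their positions are chr7:130876748-130876769 and chr7:130877467-130877489, both on the minus strand of GRCh38.p14, in an intron and in an exon of LINC-PINT in GENCODE v44.
hsa-miR-29a-3p: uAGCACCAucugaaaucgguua
hsa-miR-29b-3p: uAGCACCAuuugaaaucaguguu
MIR29A, the nearest tested gene on one side of LINC-PINT, had means of 0.385 and 0.318 CPM at 30 weeks and was not called (log2FC -0.26, adjusted p = 0.738 in edgeR).

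Several lncRNAs differed between time points in both arms. Between 24 h and 15 weeks, 4 of 10 fell in controls (NEAT1 -0.58, DANCR -0.95, MIR31HG -0.82 and LINC-PINT -0.72), where the test called 24.9% of all genes, 12.2% lower. MIR31HG was called in all 4 fits with 1 of these samples left out, NEAT1 in 1 of them (without control replicate 2 of 24 h) and DANCR and LINC-PINT in 0. In exposed cells 3 of 10 were called (HOTAIR higher, DANCR -1.20 and MIR31HG -0.93), where it called 26%, and the call of DANCR was lost without exposed replicate 2 of 15 weeks. From 15 to 30 weeks, 3 of 10 rose in controls (DANCR 1.69, CYTOR 1.33 and MIR31HG 0.94) beside 50.3% of all genes called, 25.6% higher, and 4 of 10 were called in exposed cells (DANCR 0.86, CYTOR 0.68 and MIR31HG 0.82 higher, LINC-PINT -1.08) beside 46%. In exposed cells the calls of DANCR and CYTOR were lost without either replicate of 15 weeks, that of CYTOR also without replicate 3 of 30 weeks, MALAT1 was also called without replicate 1 of 15 weeks, and GAS5 and SNHG1 were also called without replicate 2 of 30 weeks. These comparisons share samples with those above and with each other. For 0 of the 10 was the change at 30 weeks called different from that at 15 weeks in edgeR, beside 4.74% of all genes, with 2 (NEAT1 and DANCR) at an unadjusted p under 0.05, where 15.3% of all genes stood.

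The order of the conditions differed between the lncRNAs. GAS5 and SNHG1 were highest at 24 h in both arms, where they did not overlap with any later condition. DANCR was highest in the 30-week controls and did not overlap with the next condition in order, and lowest in exposed cells at 15 weeks. CYTOR and MIR31HG were highest in the 30-week controls, where CYTOR overlapped with exposed cells of 30 weeks and MIR31HG with both groups of 24 h. LINC-PINT was highest in exposed cells at 24 h, and HOTAIR in exposed cells at 30 weeks, which overlapped with exposed cells at 15 weeks.

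Among 22 tested members of a longer list of 27 cancer-linked lncRNAs, 3 were called higher at 30 weeks (MIR155HG 1.30, TUG1 0.54 and NORAD 0.45) and 2 lower (H19 -6.98 and MIR17HG -0.61), with a median of -0.02. These 5 of 22 are a share close to the 23.7% called over all genes. The count of 5 became 3 without control replicate 1, control replicate 2 or exposed replicate 3. In those fits 14.9%, 21.5% and 20.2% of all genes were called. Of 12 proliferation genes 1 was called, MKI67 (0.81, from a mean of 216 to 378 CPM), a share below the 23.7% of all genes. Without control replicate 1, where 14.9% of all genes were called, the count was 0.

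**Figure D5:**
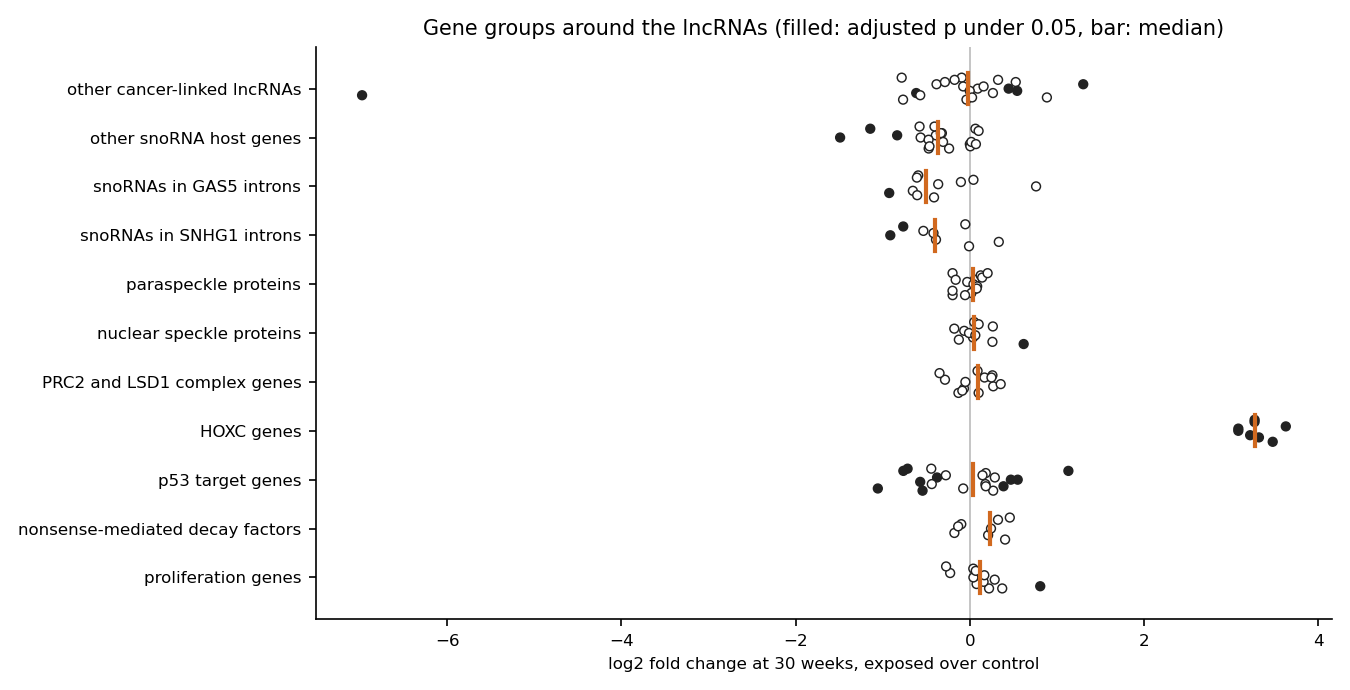
Log2 fold change at 30 weeks of the tested genes of 11 groups related to the lncRNAs, 1 point per gene, filled where the adjusted p was under 0.05, with an orange bar at each median. The 8 tested HOXC genes have fitted values of 3.08 to 3.63, which for HOXC4, HOXC5, HOXC10 and HOXC11 rest on controls with 0 to 4 counts. Of these 8, 5 passed the filter on low counts only through the exposed 30-week samples. The snoRNA hosts and their snoRNAs have medians of -0.50 to -0.36, and H19 stands alone at -6.98.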

How the data were processed

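RNA was sequenced from 15 samples (TruSeq Stranded Total RNA with Ribo-Zero). Per the labels and methods, the authors used Rfastp for trimming and Rsubread for counts per gene on GRCh38, and deposited the raw counts. The strand setting and the handling of reads with several positions are not given in the sources used here. Counts were tested in R 4.3.3 with edgeR 4.0.16 (filterByExpr, TMM, glmQLFit, 1 mean for each of 6 conditions, 15 samples in 1 fit, Benjamini-Hochberg adjustment over 16740 genes, threshold 0.05). Standard errors come from that fit. CPM are TMM-scaled (prior count of 2 on the log2 scale). Alternatives used DESeq2 1.42.0, limma 3.58.1 and sva 3.50.0. The procedure was tested on simulated data. Depth of at least 23143202 counts per sample makes 3 counts, the floor used, about 0.1 CPM. Samples were grouped by their labels. All 10 lncRNAs are named with their values, and from each related list up to 3 called genes in each direction with the greatest change. The members and the lists were chosen with earlier results of these data known. Promoter and miRNA sequences came from RefSeq tables (GRCh38.p14). Promoters were matched for 7 of the 10, and NEAT1, PVT1 and HOTAIR are not shown.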

Additional observations from a re-analysis of the deposited data

Results flagged for a closer look

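The level of SNHG1 in exposed cells at 30 weeks was picked out because 1 of the 4 samples lay far from the rest. Replicate 2 had 131 CPM, against 68.9 CPM in the next sample and 57.4 and 56.9 CPM in the others, and the gap divided by the range (Dixon's ratio) was 0.838, above the 95% critical value for 4 samples. Chance gives such a ratio in about 1 of 20 groups. Without this sample SNHG1 was called lower in exposed cells (log2 fold change -0.66, edgeR adjusted p = 0.00236), whereas over all 18 alternatives the adjusted p ran from 0.00236 to 0.818.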

How the results depend on the processing

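At 30 weeks 4 lncRNAs were called. The count was 2 (HOTAIR and DANCR) at an adjusted p under 0.01, at 2-fold or more, with each time point fitted alone, or with the replicate number as a block, and it ran from 2 to 6 with 1 sample left out. The count of 2 came without control replicate 1 or 2 or exposed replicate 1, 3 or 4. HOTAIR was removed by the filter of 10 counts in every sample and has no value there. At 15 weeks the count of 0 became 3 with each time point fitted alone, where 1.96% of all genes were called. The count stayed 0 (0 to 0) with 1 sample left out. At 24 h it was 0 in all runs. For the change at 30 weeks against that at 15 weeks, 0 became 5 with 2 surrogate variables. That fit called 13.4% of all genes, and the main fit 4.74%. The count was 0 to 2 with 1 sample left out (2 without exposed replicate 2 of 30 weeks, beside 9.1% of all genes). Without both control replicate 1 and exposed replicate 2 it was 1, beside 8.09% of all genes. For controls between 24 h and 15 weeks, 4 became 1 at an adjusted p under 0.01 and 0 at 2-fold. It became 2 with at least 10 counts, 2 with upper-quartile scaling and 1 to 2 with 1 sample left out. The share of all genes called was 24.9% in the main fit, 25% with at least 10 counts and 25.3% with upper-quartile scaling. Without control replicate 1 or 2 of 15 weeks it was 14.9% or 14.3%. For exposed cells over the same step, 3 became 5 with surrogate variables and 2 to 3 with 1 left out. The share of all genes called went from 26% to 39.2% with surrogate variables. Without exposed replicate 1 or 2 of 15 weeks it was 15.4% or 14.6%. From 15 to 30 weeks, 3 in controls became 5 with surrogate variables and stayed at 3 with 1 left out. There the share of all genes called went from 50.3% to 43.2% with surrogate variables. In exposed cells 4 became 2 at an adjusted p under 0.01 and 1 at 2-fold. With 1 left out it was 2 to 6 (2 without exposed replicate 2 of 15 weeks). The share of all genes was 46% in the main fit. It was 29.3% without exposed replicate 2 of 15 weeks and 54.3% without exposed replicate 2 of 30 weeks. The cause of these differences was not tested. Correlations of same-numbered samples ran from -0.118 to 0.303. They give no clear sign of pairing, but low values cannot exclude that same-numbered samples were handled together. The block is given for its count only. With the block CYTOR and MIR31HG were not called (adjusted p = 0.102 and 0.0633). The fits with CYTOR and its copy counted as 1, and without both libraries, were chosen after seeing the data. Low counts limit HOTAIR, its HOXC neighbors and the snoRNAs, and 2 samples a group limit the tests at 24 h and 15 weeks.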

Other observations

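MIR612, a microRNA gene that lies within the long isoform of NEAT1 on the same strand, was counted separately. At 30 weeks it had 4.99, 3.50 and 6.98 CPM in the controls and 2.82, 2.14, 2.43 and 1.30 CPM in exposed cells, without overlap, a log2 fold change of -1.25 (standard error 0.276, edgeR adjusted p = 0.00383), while NEAT1 was at -0.15. At 15 weeks the change was 0.02 and not called. In the controls MIR612 rose between 24 h and 15 weeks by a log2 fold change of 1.59 (edgeR adjusted p = 0.00556), where NEAT1 fell by 0.58. Whether reads of NEAT1 were counted for MIR612 was not tested. SNORA26, a snoRNA within DANCR, had a log2 fold change of -0.98 at 30 weeks and was not called (edgeR adjusted p = 0.0773).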
